A study of Homo sapiens with 2 samples.

Results

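The miR-34 family (miR-34a, miR-34b and miR-34c) and the miR-192, miR-194 and miR-215 miRNAs were examined in H460 cells, a human non-small cell lung cancer line. All array probes whose name carries one of these 6 miRNAs, in either arm of the hairpin, were taken by name alone, which gave 11 of the 1273 human miRNA probes. Of these 11, 6 belonged to the miR-34 family and 5 to miR-192, miR-194 and miR-215. The 1273 human probes include the array maker's candidate small RNAs, named miRPlus, which are counted as miRNAs throughout. The cells were treated with sulforaphane, an isothiocyanate from cruciferous vegetables, or with vehicle, each for 48 hours, and grown in serum-supplemented medium. No sulforaphane dose is stated in the labels used here. Total RNA of each condition, labelled with a single dye, was hybridised to 1 miRCURY LNA array, whose capture probes contain locked nucleic acids. With 1 array for sulforaphane and 1 for vehicle there was no spread between samples, so no difference between the conditions could be tested and no p-value is given.

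A miRNA is cut from a hairpin transcript that can yield a product from its 5′ arm (5p) and one from its 3′ arm (3p). The product pairs with messenger RNAs mainly through bases 2 to 8, its seed. The miR-34a and miR-34b/c genes are transcribed more after DNA damage, and the miR-34 products repress cell cycle and survival genes such as CDK4, CDK6, MET and BCL2. miR-192, miR-194 and miR-215 are best known as abundant miRNAs of liver and intestine, and miR-192 and miR-215 can slow the cell cycle. The arrays measured no messenger RNA or protein.

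The mature sequences are shown because the seed decides which probes report on miRNAs with the same targets. They are from RefSeq (GRCh38.p14), which matched 10 of the 11 probes (all but miR-34c-5p), and the seed is in capitals. The first group holds miR-34a-5p, miR-34b-5p and the miR-449 miRNAs, relatives that are abundant in multiciliated airway cells. The second holds the nearly identical miR-192-5p and miR-215, and the third is miR-194-5p. The probe for miR-215 has no arm in its name and is shown as the 5p arm, to which the older name without an arm refers.
miR-34a-5p: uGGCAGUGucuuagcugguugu
miR-449a: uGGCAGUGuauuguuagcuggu
miR-449b-5p: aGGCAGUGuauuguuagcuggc
miR-34b-5p: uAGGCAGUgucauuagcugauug
miR-449c-5p: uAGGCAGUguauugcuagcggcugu
miR-192-5p: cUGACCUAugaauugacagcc
miR-215-5p: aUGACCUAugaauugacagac
miR-194-5p: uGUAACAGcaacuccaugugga

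Among the sequences shown, miR-34a-5p, miR-449a and miR-449b-5p shared the seed GGCAGUG. The seed of miR-34c-5p could not be compared, because its sequence was not matched. In miR-34b-5p and miR-449c-5p the seed was AGGCAGU, the same stretch moved by 1 base. miR-34a-5p and miR-34b-5p differed by 4 single-base edits over 22 and 23 bases, and miR-34a-5p and miR-449a by 6. miR-192-5p and miR-215-5p, both 21 bases long, had the same seed and differed by the 2 substitutions C1A and C20A, with the base of miR-192-5p first and positions counted from the 5′ end. Capture probe sequences were not used here, so how far a probe separates such close relatives cannot be read from these data.

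The members come from 7 hairpin genes. MIR34A lies on chromosome 1 (chr1:9151668-9151777, minus strand) within the span of the long non-coding RNA gene MIR34AHG. MIR34B (chr11:111512938-111513021) and MIR34C (chr11:111513439-111513515) lie 417 bases apart on the plus strand of chromosome 11, within the spans of MIR34BHG and BTG4. MIR192 (chr11:64891137-64891246) and MIR194-2 (chr11:64891355-64891439) are 108 bases apart on the minus strand of chromosome 11, within MIR194-2HG. MIR215 (chr1:220117853-220117962) and MIR194-1 (chr1:220118157-220118241) neighbour each other on the minus strand of chromosome 1, within the spans of IARS2 and the long non-coding RNA gene LOC124904515. Mature miR-194-5p is the same from MIR194-1 and MIR194-2, so its probe cannot separate these 2 loci. All coordinates are RefSeq's on GRCh38.p14. The array files give none.

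The MIR34A hairpin is given in full because its arms had separate probes, of which 1 had a clear signal and 1 did not. The capitals mark the 5p arm first and the 3p arm after it.
MIR34A hairpin: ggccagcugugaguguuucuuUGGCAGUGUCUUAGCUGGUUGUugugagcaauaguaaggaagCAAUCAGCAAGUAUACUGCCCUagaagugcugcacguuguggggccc

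Signal was read on the normalized scale of the authors, the background-subtracted intensity divided by 1 factor per array. A probe was called detected where it exceeded the 95th percentile of the 143 probes for viral miRNAs on the same array. That floor was 5.52 (684 background-subtracted units) on the sulforaphane array and 6.44 (718 units) on the vehicle array. Over all probes, the median foreground intensity was 163.5 and 128.5 units, and the median local background 61 and 41 units, on the sulforaphane and the vehicle array. Of 4 miRNAs of epithelium and carcinoma, 2 were detected on both arrays, miR-21-5p (122 with sulforaphane and 93.5 with vehicle) and miR-31-5p (22.7 and 23.7). The other two, miR-200c-3p (3.96 and 3.97) and miR-205-5p (0.51 and 0.46), were detected on neither. None of 4 blood miRNAs was detected on either array, with summed levels of 4.09 and 3.74, and neither was miR-122-5p of liver (1.14 and 1.74). Of 4 muscle miRNAs, 1 was detected with vehicle alone (miR-206, 1.80 with sulforaphane and 6.61 with vehicle). Of 2 neural miRNAs and of 3 of mesenchyme and endothelium, 1 each was detected with sulforaphane alone, miR-9-5p (6.46 and 5.78) and miR-126-3p (8.69 and 6.24). Their vehicle values exceeded the sulforaphane floor of 5.52, and miR-206 was just above the vehicle floor of 6.44. These calls on 1 array depend on where the floors lie and are not read as a difference between conditions.

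Of the 11 probes, 1 was detected on both arrays, hsa-miR-34a-5p, against 168 of all 1273 human miRNA probes (13.2%). The other 10 were detected on neither array. The background shares for a single array were 16.7% with sulforaphane and 14.3% with vehicle. The detected miRNA thus belonged to the miR-34 family, of whose 6 probes it was the only one above the floor, and none of the 5 probes for miR-192, miR-194 and miR-215 was above it. By arm, 1 of 5 probes named 5p and 0 of 5 named 3p were detected. No share over all human probes of each arm is given here. With 1 detected probe, neither split is read as a difference between arms or families.

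**Figure D1:**
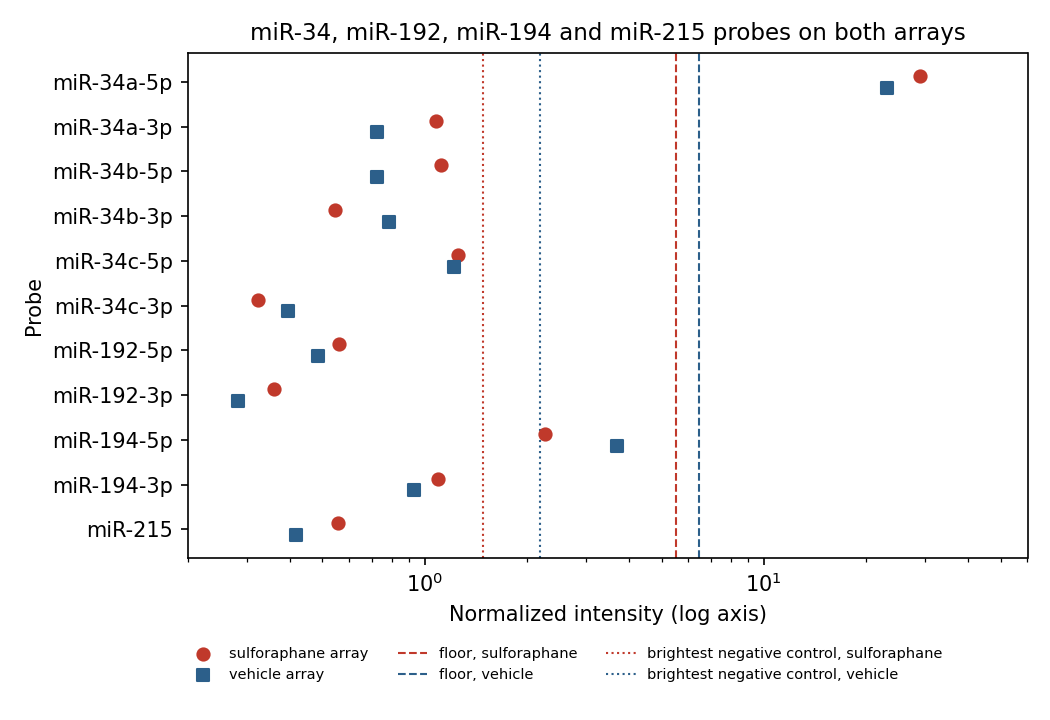
Normalized intensity (log axis) of the 11 probes on the sulforaphane array (circles) and on the vehicle array (squares), 1 array each. Dashed lines mark the detection floors of 5.52 (sulforaphane) and 6.44 (vehicle), and dotted lines the brightest negative control probe of each array. miR-34a-5p lies right of the floors and miR-194-5p between the dotted and the dashed lines, while the other 9 probes lie left of all lines.

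miR-34a-5p, the most studied member of its family and known as a tumour suppressor, had a foreground intensity of 3632.5 units with sulforaphane and 2621 with vehicle. After background subtraction these were 3579.5 and 2582.5 units, and on the normalized scale 28.9 and 23.2. It was 5.23 times the floor with sulforaphane and 3.60 times with vehicle. On each array 142 of the 143 viral probes read lower. The 1 brighter viral probe, hsv1-miR-H4-3p, read 151 with sulforaphane and 108 with vehicle, and no label names an infection with that virus. Among the viral probes that read lower, kshv-miR-K12-12-5p came close to miR-34a-5p, at 25.4 with sulforaphane and 23.0 with vehicle. Another, kshv-miR-K12-5-5p, read 20.2 and 17.1. Some viral probes thus reached a similar brightness. The spot stood well above its surroundings on both arrays, with a foreground of 68.5 times its local background with sulforaphane and 68.1 times with vehicle. The local background itself was 53 units on the sulforaphane array and 38.5 on the vehicle array.

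The log2 ratio of miR-34a-5p, sulforaphane over vehicle, was 0.32, or 1.25-fold on the authors' normalized scale, the value that the authors' deposited table also gives. The miRNA therefore read higher with sulforaphane on this scale, and so did most others. The 168 detected miRNAs had a median log2 ratio of 0.38 with quartiles of 0.12 and 0.54, and 139 of them lay above 0. miR-34a-5p was between the quartiles, just below that median (difference -0.066), with 98 detected miRNAs having a higher ratio and 69 a lower one. The 41 spike-in probes above the floor, synthetic RNAs that carry no information on the cells, had a median log2 ratio of 0.68 and an SD between probes of 0.20. miR-34a-5p was 0.36 lower than that median (difference -0.36). The 21 detected probes for other small RNAs, mostly small nucleolar RNAs, had a median of 0.25, and miR-34a-5p was 0.064 higher than that. The distances from the miRNA median and from the small RNA median were smaller than the SD between spike-in probes, and the distance from the spike-in median was larger. That SD is a spread between probes on the same arrays, so it gives no error for the ratio of miR-34a-5p.

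Of the detected members 0 of 1 passed a size rule of 2-fold in either direction, a rule that 8 of the 168 detected miRNAs passed (4.76%), 6 upward (3.57%) and 2 downward (1.19%). miR-34a-5p also missed a rule of 1.5-fold. Its sign depended on the scaling. Over 8 other scalings its log2 ratio ran from -0.39, with the spike-in probes as reference, to 0.47 without scaling, and it was below 0 under 4 of them. Its place among the detected miRNAs moved far less, between -0.074 and -0.066 relative to their median under all 8. This agreement is partly built in, because 6 of the 8 scalings shift all miRNAs of an array by 1 factor or nearly so.

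**Figure D2:**
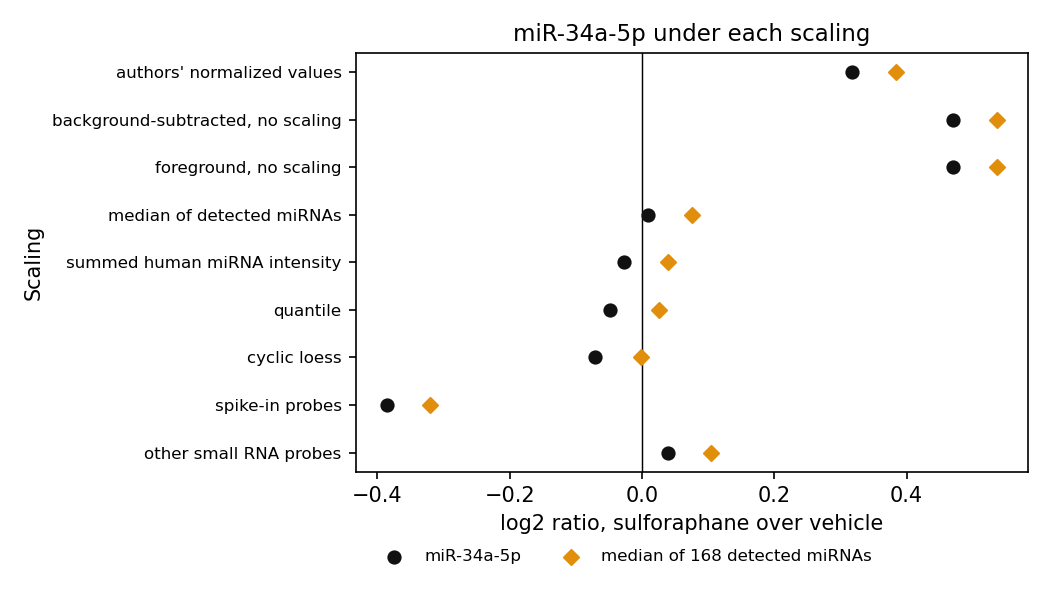
log2 ratio of miR-34a-5p (circles) and the median of the 168 detected miRNAs (diamonds), sulforaphane over vehicle, under the authors' normalized values and 8 other scalings (rows). miR-34a-5p runs from -0.39 to 0.47 and lies left of the diamond in every row.

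The 5 detected human miRNAs whose pair of log2 values was nearest to that of miR-34a-5p, by Euclidean distance over the 2 arrays, were miR-423-5p, miR-340-5p, miR-320b, miR-374b-5p and miR-92a-3p. miR-423-5p read 27.7 with sulforaphane and 24.1 with vehicle, at a distance of 0.085. miR-92a-3p, the fifth, read 26.6 and 24.7, at a distance of 0.15. Their log2 ratios ran from 0.11 for miR-92a-3p to 0.52 for miR-374b-5p, a range that holds the 0.32 of miR-34a-5p. Likeness over 2 arrays describes brightness and ratio only, and probes differ in affinity, so it does not order the miRNAs by abundance.

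The opposite arm of the same hairpin, miR-34a-3p, which is usually the less stable product, had 134 background-subtracted units with sulforaphane and 81 with vehicle. On the normalized scale it read 1.08 with sulforaphane and 0.73 with vehicle, under the floor on both arrays. The 2 arms have different probes, so their levels cannot be set against each other, but only the 5p arm gave a signal above the viral probes' floor.

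The miR-34b/c hairpins, whose products are best known in airway ciliated cells and testis, gave no detected product. miR-34b-5p read 1.12 with sulforaphane and 0.73 with vehicle. miR-34b-3p read 0.54 with sulforaphane and 0.78 with vehicle. miR-34c-5p, the brightest of these 4 probes on both arrays, read 1.26 with sulforaphane and 1.22 with vehicle. miR-34c-3p read 0.32 with sulforaphane and 0.39 with vehicle. All 4 were at most 0.23 times the floor on either array and under the brightest of the 7 negative control probes, which read 1.49 with sulforaphane and 2.19 with vehicle. A difference in any of them was not detectable at these signals.

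The seed relatives of miR-34 were dark as well. miR-449a read 0.52 with sulforaphane and 0.37 with vehicle, miR-449b-5p read 0.38 and 0.25, and miR-449c-5p read 0.52 and 0.26. All 3 were under the median viral probe (0.61 with sulforaphane and 0.63 with vehicle).

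miR-194-5p, which is made from both the MIR192 and the MIR215 cluster, was the brightest of the 10 undetected members on both arrays. It had 280.5 background-subtracted units with sulforaphane and 412 with vehicle, or 2.26 and 3.70 on the normalized scale. This was 0.41 times the floor with sulforaphane and 0.57 times with vehicle. It was the 1 undetected member above the brightest negative control probe on both arrays, and 121 of 143 viral probes with sulforaphane and 129 with vehicle read lower. The measured log2 ratio was -0.71, and it stayed below 0 under all 8 other scalings (from -1.41 to -0.44). The agreement is partly built in, because most of these scalings shift all miRNAs of an array by 1 factor. Under the floor the ratio is a difference between 2 spots and not a measured fold change. Its opposite arm from MIR194-2, miR-194-3p, read 1.09 with sulforaphane and 0.93 with vehicle, also under the floor on both arrays.

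The cluster partners of miR-194 had almost no signal. miR-192-5p, the main arm of a miRNA abundant in liver and intestine, read 0.56 with sulforaphane and 0.48 with vehicle. miR-192-3p read 0.36 with sulforaphane and 0.28 with vehicle. miR-215, whose 5p arm differs from miR-192-5p only by C1A and C20A, read 0.56 with sulforaphane and 0.42 with vehicle. All 3 were below the median viral probe on both arrays. In foreground units they lay between 109.5 and 122.5 with sulforaphane and between 71.5 and 97 with vehicle, against local backgrounds of 49.5 to 65 and 39 to 43 units.

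Over the 10 undetected members the measured log2 ratio on the authors' normalized scale was above 0 in 7 and below 0 in 3. The 3 lower ones were miR-194-5p, miR-34b-3p and miR-34c-3p. Among all 1047 human probes under the floor on both arrays, 761 lay above 0, with a median of 0.37 and an SD of 0.67, which is wider than the SD of 0.39 among the detected miRNAs. The signs of the 10 were therefore not read further.

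**Figure D3:**
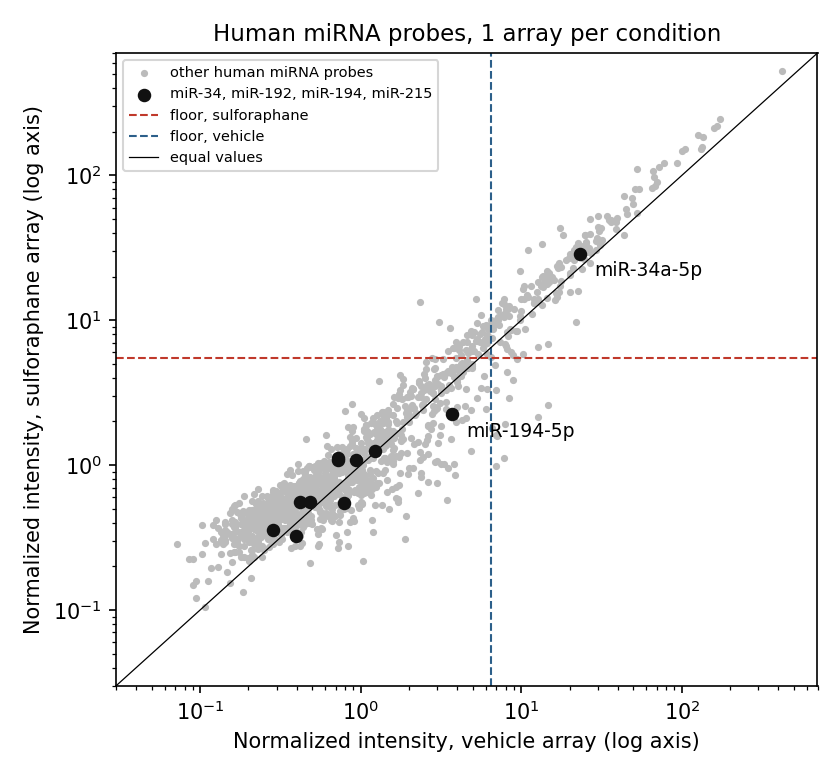
Normalized intensity of the 1273 human miRNA probes (points) on the vehicle array (horizontal, log axis) and on the sulforaphane array (vertical, log axis), with the 11 probes of miR-34 and miR-192, miR-194 and miR-215 in black. Dashed lines mark the detection floors and the solid line equal values. miR-34a-5p is the single black point in the upper right field, where both arrays are above the floor, and miR-194-5p lies under the solid line.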

How the data were processed

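Per the labels' protocols, total RNA from TRIzol and a column kit was labelled with Hy3 and hybridised to one-colour miRCURY LNA arrays. No source used here gives the scanner, the software or how spots were averaged. Per the file headers, the authors deposited for each of 2661 probes a foreground intensity, a foreground minus background intensity, a normalized value and a fold change. That normalized value is, per the file headers and values deposited, a ratio, the background-subtracted intensity over 1 factor per array (124 for sulforaphane and 111.5 for vehicle). The choice of factors is not stated in any source used here. The authors' fold change is the ratio of the normalized values, and the series value table holds the same values to within 4.9e-08.

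log2 ratios were computed with no added value. The number of arrays, 1 per condition, limits the precision. Every probe of the 6 miRNAs, 3 seed relatives and the 5 nearest miRNAs were to be named. Other planned lists are not reported here. Further names were chosen after their values were seen. The members, lists, floor and size rule were chosen with earlier results of these data known. Alternatives were 8 other scalings, 7 other floors, the floor added before the logarithm and a 1.5-fold size rule. Scalings by a probe class divided each array by the median of that class. Quantile and cyclic loess scaling used limma 3.58.1 in R 4.3.3, and the rest used Python 3.11.15, numpy 2.4.6 and pandas 2.3.3. The ratio with an all-probe median scaling, and the quantile and cyclic loess scalings, were tested on simulated data. The floor was tested on a plain series of numbers, and the other scalings were not tested.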

Additional observations from a re-analysis of the deposited data

How the results depend on the processing

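The log2 ratio of miR-34a-5p moved to 0.0092 with the median of detected miRNAs and 0.039 with other small RNAs as the scale. It was -0.027 with summed intensity, -0.048 with quantile, -0.071 with cyclic loess and -0.39 with spike-in scaling. These scalings also moved the median of all detected miRNAs, by -0.70 to -0.28. Adding the floor before the logarithm gave 0.22 for miR-34a-5p, and under no scaling did it pass the size rule. The number of detected members depended on the floor. On both arrays it was 4 of 11 above the median of all probes, where 43.7% of human probes passed. It was 2 above the brightest negative control (25.8% of human probes), an alternative chosen after seeing the data. Above the brightest viral probe it was 0 (0.63% of human probes). On at least 1 array it was 7, 2 and 0 under these floors, and 2 above the 90th percentile of viral probes. Above that percentile on both arrays it was 1 (18.7% of human probes). The added member was miR-194-5p where there were 2. Shares of all human probes on at least 1 array are not given for these floors, so those counts have no background beside them. The 99th percentile, the higher of both floors for both arrays and a floor on foreground intensity each left miR-34a-5p alone. On both arrays 5.26%, 12.8% and 13.1% of human probes passed these floors. With the 95th percentile as the floor no other member was detected. The ratio of miR-194-5p was recomputed under the other scalings as a description only. No paired analysis was possible because each condition had 1 array, and for the same reason no replicate could be left out. Spots under the floor give no measured fold.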
